A study of Mus musculus with 10 samples.

Results

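The 10 genes described here are the lymph node macrophage genes Siglec1, Marco, Cd68, C1qa, C1qb, C1qc, Vsig4, Mertk, Csf1r and Adgre1, found by symbol among 33585 genes quantified in tumor-draining lymph nodes (TDLNs). The nodes came from 10 female wild-type BALB/c mice aged 6 weeks that carried 4T1 tumors, a mouse mammary carcinoma line, in a mammary fat pad. All tumors were treated by microwave ablation (MWA) on day 10, so neither group was left unablated. From then on the mice of the MWA+2DG group received 2-deoxy-D-glucose (2DG), a glucose analogue that inhibits glycolysis, at 500 mg/kg by intraperitoneal injection every 2 days, while the labels name the MWA group by ablation alone. The methods give PBS as its injection. The inguinal node that drains the tumor was taken on day 15, and 1 RNA-seq library was made per mouse, 5 per group. Values are FPKM, fragments scaled by transcript length and by the mapped fragments of the library, so levels are per length and can be set side by side between genes, while the depth of the libraries is unknown. The question was whether the macrophage genes differed between nodes of 2DG-treated and PBS-treated mice after ablation.

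Macrophages of a lymph node line the sinuses through which lymph flows, take up particles, dying cells and antigen there, and pass antigen on to B cells. Subcapsular and medullary sinus macrophages carry the sialic acid receptor CD169 (Siglec1), medullary ones also F4/80 (Adgre1) and the scavenger receptor MARCO, and the cells depend on signalling through the receptor of colony stimulating factor 1 (Csf1r). Tissue macrophages make much of the body's C1q, the recognition molecule of the classical complement pathway, and MERTK binds apoptotic cells by way of bridging proteins.

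None of the macrophage genes differed between the groups at an adjusted p of 0.05. The values of all 10 members overlapped between groups, where 0.802% of the 13334 tested genes had groups that did not overlap. Of the 9 members with a mean of at least 1 FPKM, the log2 fold change was below 0 in 7 and above 0 in 2. It was below 0 in 47.4% of all tested genes. The members' median stood at -0.12 beside 0.0074 over all tested genes. In limma's test on log2(FPKM + 1) with Benjamini-Hochberg adjustment, 0% of the tested genes reached an adjusted p of 0.05, while 567 had an unadjusted P below 0.05. By a rule of unadjusted P below 0.05 with a log2 fold change beyond 0.25, 1 of 9 members was lower (Csf1r) and none was higher. Over all tested genes this rule took 2.82%, and 1.87% in the lower direction, so that the members' count rests on 1 gene at the edge of the threshold. Across all genes the rule took 127 higher and 249 lower genes, a split that turned to 273 higher and 147 lower when each library was rescaled to the mean summed FPKM with the same genes and pseudocount. Rescaling to a sum of 1000000, which also raises values against the pseudocount and the filter so that 16550 genes were tested, gave 440 higher and 205 lower.

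The libraries bore the markers of lymph node, with Cd79b between 373 and 567 FPKM and Cd8a between 25.2 and 39.3 FPKM. They also fell into replicates 1 and 2 against replicates 3 to 5 of both groups. Alb, the serum albumin gene of hepatocytes, was at 35.1 to 102 FPKM in replicates 3 to 5 and at 0.0486 FPKM or less in replicates 1 and 2. The labels name no batch, so these sets were seen in the data only. The Kupffer cell gene Clec4f was at 0.0924 FPKM or less in every library. Vsig4, a complement receptor of the immunoglobulin family that Kupffer cells also carry, was listed at 0 in 9 libraries and at 0.0755 FPKM in replicate 4 of the MWA+2DG group, so it entered no test. Members' fold changes are therefore also given within each set below.

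The promoters of C1qb and C1qc are shown because their transcripts moved together across the libraries, and that of Marco because it did not follow them. C1qb, C1qc and C1qa are direct neighbours, in this order, on chromosome 4 of the RefSeq annotation, and none of the other members lies among them. The stretches are from RefSeq's promoter table for GRCm38.p6, all on the minus strand, while the processing notes name mm9 for the expression values. They run 5′ to 3′ and end right before the annotated start at chr4:136886201-136886450 for C1qb and chr1:120505025-120505274 for Marco. For C1qc the stretch at chr4:136893066-136893164 ends 151 bases short of the RefSeq start. Capitals mark GAGGAA, the core bound by the myeloid factor PU.1, or its complement TTCCTC.
C1qb promoter: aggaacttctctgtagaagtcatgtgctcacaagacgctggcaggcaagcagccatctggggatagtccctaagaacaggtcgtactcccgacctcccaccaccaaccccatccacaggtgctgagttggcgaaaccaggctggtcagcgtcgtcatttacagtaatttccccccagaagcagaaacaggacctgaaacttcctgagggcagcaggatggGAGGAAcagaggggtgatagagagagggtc
C1qc promoter: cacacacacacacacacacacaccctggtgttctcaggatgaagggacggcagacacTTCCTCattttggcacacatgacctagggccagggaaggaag
Marco promoter: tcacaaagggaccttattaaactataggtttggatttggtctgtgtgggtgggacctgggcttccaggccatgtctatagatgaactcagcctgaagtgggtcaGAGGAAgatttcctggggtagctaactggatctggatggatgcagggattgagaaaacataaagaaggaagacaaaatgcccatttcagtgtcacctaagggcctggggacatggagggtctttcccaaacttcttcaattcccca
Each stretch held 1 match, beginning at position -30 from the RefSeq start in C1qb, -193 on the opposite strand in C1qc and -146 in Marco. The motif stood on either strand in 23.3% of the 32851 promoter windows of 250 bases, so a match is a description only. The C1qc stretch was 99 bases, shorter than these windows. Promoters of 6 of the 10 members were in the table, and matches are given only for those shown, so no share of members is given.

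Csf1r, the receptor through which CSF1 and IL-34 keep macrophages alive, had the lowest unadjusted P among the members. It was at 22.8, 30.9, 30.1, 24.6 and 33.7 FPKM in MWA replicates 1 to 5 and at 22.0, 26.1, 21.9, 26.8 and 18.0 FPKM in MWA+2DG replicates 1 to 5. All 5 MWA+2DG libraries lay below the MWA median and 3 lay below the lowest MWA library, but the groups overlapped. The means were 28.4 ± 4.52 and 22.9 ± 3.58 FPKM (SD, n = 5 each), a log2 fold change of -0.30 ± 0.13 (SE) with a 95% interval of -0.59 to -0.0028. The unadjusted P was 0.0482 and the adjusted p 0.995 in limma, and the two-sided exact permutation test gave p = 0.0794 where 0.00794 is the smallest it can give. P was above 0.05 without any of MWA replicate 2 (0.0997), 3 (0.0936) or 5 (0.113) or MWA+2DG replicate 1 (0.0832), 3 (0.0851) or 5 (0.115). The log2 fold change was -0.14 within replicates 1 and 2 and -0.40 within replicates 3 to 5. In whole nodes, fewer macrophages and less RNA per macrophage cannot be told apart, here as for every member.

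**Figure D1:**
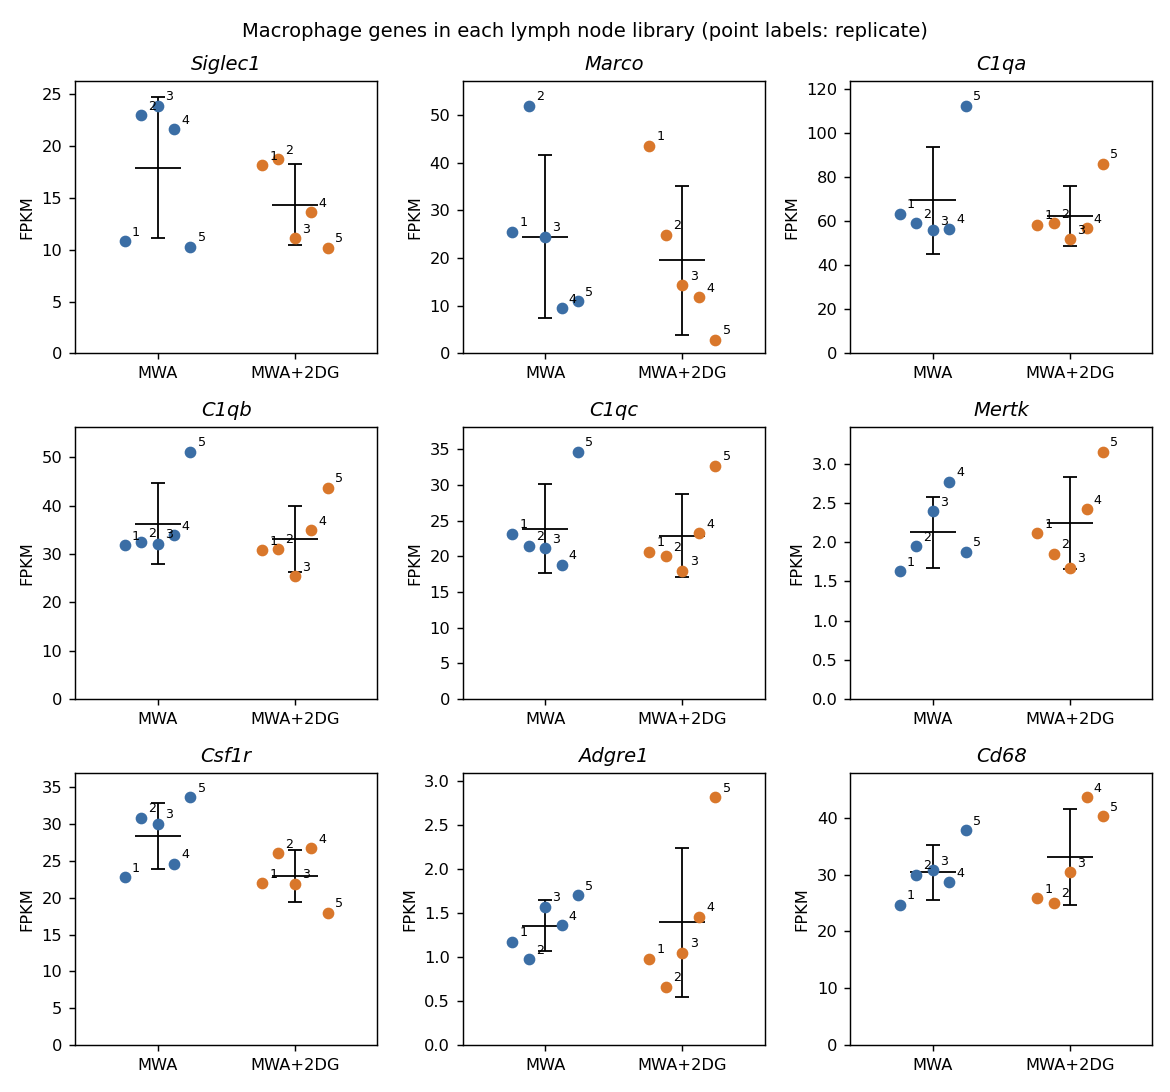
FPKM of the 9 members with a mean of at least 1 FPKM, on linear axes that start at 0, in the MWA and the MWA+2DG group. Points are libraries with their replicate number, and bars are the mean ± SD (n = 5). The groups overlap in every panel, and the C1q chains are highest in replicate 5 of each group.

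Siglec1, which binds sialylated particles at the sinus wall, was at 10.8, 23.0, 23.9, 21.6 and 10.3 FPKM in MWA replicates 1 to 5 and at 18.2, 18.7, 11.1, 13.6 and 10.2 FPKM in MWA+2DG replicates 1 to 5. All 5 MWA+2DG libraries were under the MWA median of 21.6 FPKM, yet 4 of them were within the range of the MWA group, whose replicates 1 and 5 were low as well. The log2 fold change was -0.25 ± 0.27 (SE) with a 95% interval of -0.85 to 0.34, an adjusted p of 0.995 in limma and an exact permutation p of 0.294. It ran from -0.13 without MWA replicate 3 to -0.42 without MWA replicate 5, and moved by over 1.5 times as well without MWA replicate 1 (-0.40), 2 (-0.15) or 4 (-0.17) or MWA+2DG replicate 5 (-0.15). Its sign differed between the sets, at 0.21 within replicates 1 and 2 and -0.56 within replicates 3 to 5.

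Marco, a class A scavenger receptor for bacteria and particles, varied most among the members, with an 18.1-fold range over the 10 libraries. It was at 25.5, 52.0, 24.5, 9.50 and 11.0 FPKM in the MWA group and at 43.6, 24.9, 14.4, 11.8 and 2.87 FPKM in the MWA+2DG group, replicates 1 to 5 in order. The spread lay within the groups rather than between them. In replicates 1 and 2 of both groups Marco was at 24.9 to 52.0 FPKM, above the 2.87 to 24.5 FPKM of replicates 3 to 5, and Marco was the member whose values did not overlap between these sets. Its log2 fold change was -0.47 ± 0.63 (SE), with a 95% interval of -1.86 to 0.91, an adjusted p of 0.995 in limma and an exact permutation p of 0.619. It became 0.03 without MWA+2DG replicate 5, the library of the lowest Marco value, -0.85 without MWA+2DG replicate 1, -0.73 without MWA replicate 4 and -0.15 without MWA replicate 2. Within replicates 1 and 2 it was -0.14 and within replicates 3 to 5 -0.69. In replicate 5 of the MWA+2DG group the monocyte gene Ly6c2 was highest, at 99.5 FPKM beside 8.46 to 44.3 FPKM elsewhere. Ccr2, also of the monocyte and general myeloid list below, was highest there too, at 5.92 FPKM. Cx3cr1 and Lyz2 of that list were lowest there, at 0.299 and 917 FPKM, so its genes did not share a direction in this library. The adipocyte gene Adipoq was at 10.9 FPKM there beside 4.59 FPKM or less. The part of these genes in the low Marco value was not tested.

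C1qa, C1qb and C1qc encode the A, B and C chains that assemble into C1q. C1qa was at 63.5, 59.1, 56.0, 56.6 and 113 FPKM in the MWA group and at 58.4, 59.1, 51.9, 56.8 and 86.2 FPKM in the MWA+2DG group. C1qb was at 31.8, 32.5, 32.1, 33.8 and 51.2 FPKM and at 30.7, 31.1, 25.4, 34.9 and 43.7 FPKM, and C1qc at 23.2, 21.5, 21.1, 18.8 and 34.7 FPKM and at 20.6, 20.0, 18.0, 23.2 and 32.7 FPKM. The chains kept the order C1qa, C1qb, C1qc in all 10 libraries and were all highest in replicate 5 of either group. Outside those libraries the summed C1q level was between 95.2 and 118 FPKM in both groups, and it was 198 FPKM in MWA replicate 5 and 163 FPKM in MWA+2DG replicate 5. The log2 fold changes were -0.12 ± 0.20 (SE) for C1qa, -0.12 ± 0.16 for C1qb and -0.05 ± 0.18 for C1qc, each with an adjusted p of 0.995 in limma, and the exact permutation p was 0.579, 0.563 and 0.683. Without MWA replicate 5 all 3 turned positive, at 0.06, 0.0044 and 0.08. Without MWA+2DG replicate 5, also high in C1q, they were -0.24, -0.23 and -0.19. The sign thus depended on which replicate 5 library was left out. C1qc also turned positive without MWA+2DG replicate 3 (0.02) and after rescaling to a sum of 1000000 (0.0073). Within replicates 1 and 2 the log2 fold changes were -0.06 for C1qa, -0.05 for C1qb and -0.13 for C1qc, and within replicates 3 to 5 they were -0.16, -0.17 and -0.0055. The 95% intervals reached from -0.56 to 0.32 for C1qa, -0.48 to 0.24 for C1qb and -0.46 to 0.35 for C1qc.

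The chains stood in nearly fixed proportion. The ratio of C1qa to C1qb was 1.89 ± 0.212 in the MWA group and 1.89 ± 0.158 in the MWA+2DG group (SD, n = 5 each, exact permutation p = 0.976), and that of C1qc to C1qb was 0.657 ± 0.0628 and 0.688 ± 0.0408 (exact permutation p = 0.437). Over the 10 libraries the ratio of C1qa to C1qb spanned 1.35-fold. That of Cd68 to C1qb spanned 1.69-fold, that of Siglec1 to C1qb 3.71-fold and that of Marco to C1qb 24.4-fold. The 2 libraries of highest C1q level had Marco at 11.0 and 2.87 FPKM and Siglec1 at 10.3 and 10.2 FPKM, at the low end for both receptors.

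**Figure D2:**
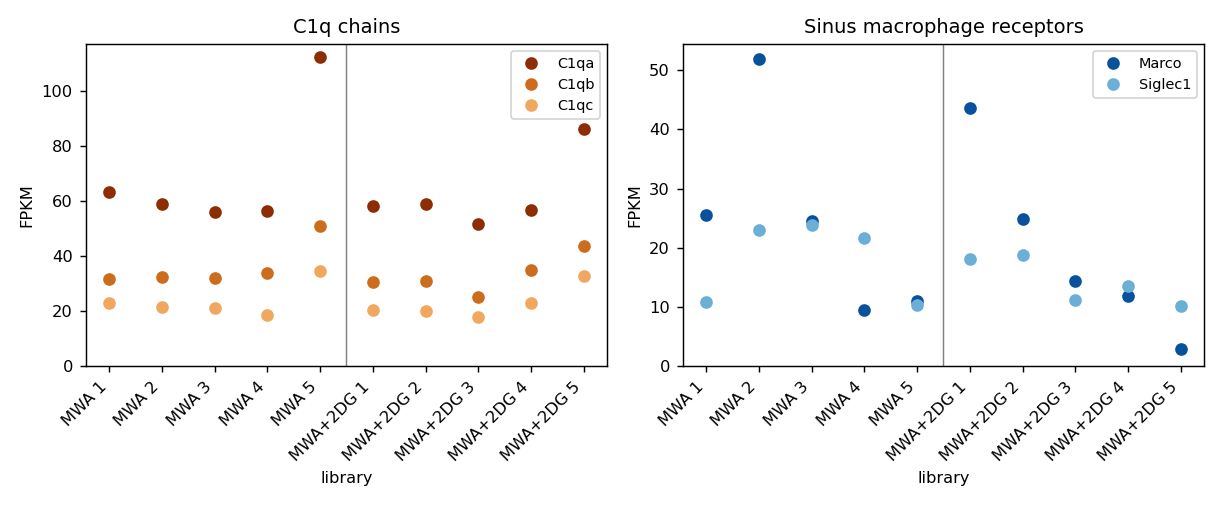
FPKM of the C1q chains (left) and of Marco and Siglec1 (right) in each library, with MWA libraries left of the vertical line and MWA+2DG libraries right of it, on axes that start at 0. C1qa reaches 113 and 86.2 FPKM in replicate 5 of each group, while Marco is at 11.0 and 2.87 FPKM in the same libraries.

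Mertk, the receptor tyrosine kinase for apoptotic cell uptake, was low, at 1.63 to 2.77 FPKM (median 1.95) in the MWA group and 1.68 to 3.15 FPKM (median 2.12) in the MWA+2DG group. Its log2 fold change was 0.05 ± 0.13 (SE), with a 95% interval of -0.25 to 0.35 and an exact permutation p of 0.714. Adgre1, which encodes F4/80, was at 0.975 to 1.70 FPKM (median 1.36) and 0.661 to 2.81 FPKM (median 1.05), with a log2 fold change of -0.03 ± 0.20 and an exact permutation p of 0.960. Within replicates 1 and 2 the log2 fold change was 0.10 for Mertk and -0.19 for Adgre1, and within replicates 3 to 5 it was 0.02 and 0.07. Both were highest in MWA+2DG replicate 5, where Marco and Csf1r were lowest. Cd68, a lysosomal glycoprotein of phagocytes, was at 24.7, 30.0, 30.7, 28.6 and 37.9 FPKM in the MWA group and at 25.8, 25.0, 30.5, 43.6 and 40.3 FPKM in the MWA+2DG group. Its log2 fold change of 0.10 ± 0.17 (interval -0.28 to 0.47, exact permutation p = 0.548) became -0.01 without MWA+2DG replicate 4 and was -0.09 within replicates 1 and 2 and 0.22 within replicates 3 to 5.

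By mean FPKM over the 10 libraries the members ran from C1qa (66.0) through C1qb (34.7), Cd68 (31.7), Csf1r (25.7), C1qc (23.4), Marco (22.0) and Siglec1 (16.1) to Mertk (2.18), Adgre1 (1.37) and Vsig4 (0.0075). C1qa lay above all other members in every library. The ranges of neighbours from C1qb to Siglec1 overlapped, as did those of Mertk and Adgre1, whereas Siglec1 at its lowest (10.2 FPKM) was above Mertk at its highest (3.15 FPKM). F4/80 transcripts were scarce in these nodes beside those of Csf1r and Cd68.

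**Figure D3:**
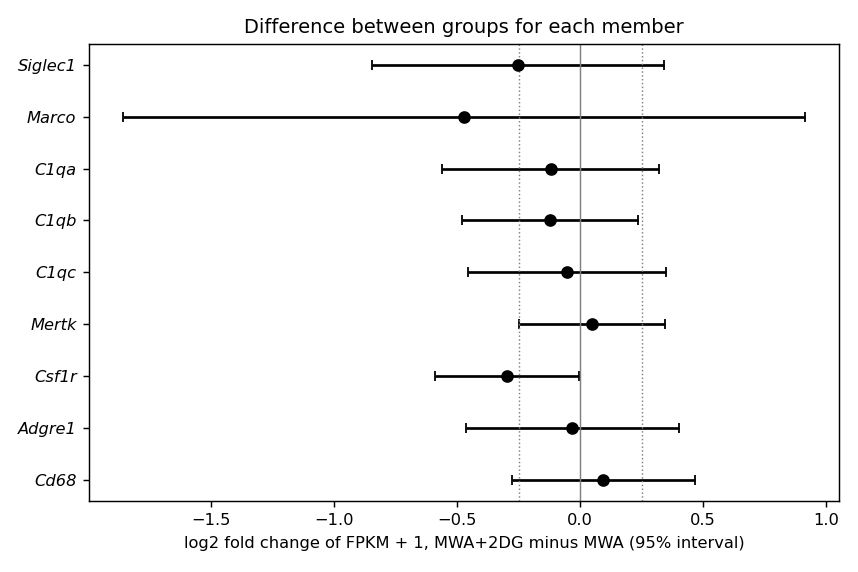
Log2 fold change of FPKM + 1 (MWA+2DG minus MWA) for the 9 tested members, with limma's 95% interval. Dotted lines stand at ±0.25. The interval of Csf1r ends at -0.0028, those of the other 8 cross 0, and that of Marco is the widest.

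Among the 36 pairs of tested members, the 3 pairs of C1q chains were correlated on log2(FPKM + 1) over the 10 libraries at an adjusted p below 0.05. Pearson's r was 0.945 for C1qa and C1qc (permutation p = 0.00035, adjusted p = 0.0104), 0.931 for C1qb and C1qc (permutation p = 0.00058, adjusted p = 0.0104) and 0.929 for C1qa and C1qb (permutation p = 0.0011, adjusted p = 0.0132). Spearman's rho was 0.733, 0.770 and 0.503 (permutation p = 0.0203, 0.0126 and 0.144, adjusted p = 0.169, 0.169 and 0.305), and none of the 36 pairs passed after adjustment by rho. Without the 2 farthest libraries, replicate 5 of each group, r fell to 0.69, 0.63 and 0.53, so the strength of the relation rests on those libraries. Within replicates 3 to 5, which hold both of them, r was 0.946, 0.935 and 0.934 (n = 6). Marco and Adgre1 ran in opposite directions at r = -0.80 (permutation p = 0.00697, adjusted p = 0.0627) and rho = -0.77 (permutation p = 0.0121, adjusted p = 0.169). Their r was -0.54 without MWA replicate 2 and MWA+2DG replicate 5 and -0.76 within replicates 3 to 5. Marco and Siglec1, both sinus macrophage receptors, had r = 0.56 (permutation p = 0.0893, adjusted p = 0.201) and rho = 0.45 (permutation p = 0.193, adjusted p = 0.365), with r = 0.43 without MWA replicate 3 and MWA+2DG replicate 5 and 0.55 within replicates 3 to 5. Replicates 1 and 2 hold too few libraries for a correlation.

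**Figure D4:**
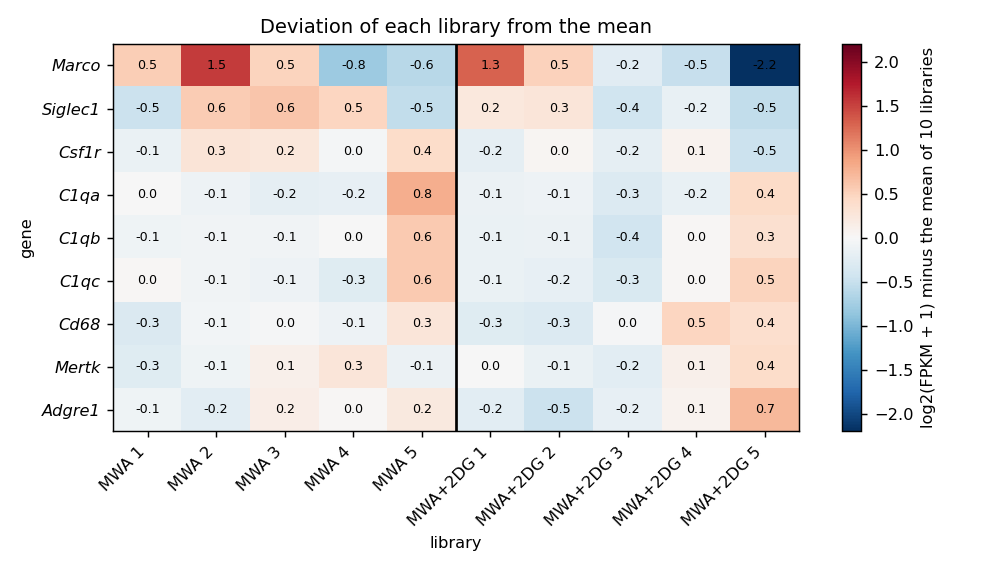
Deviation of log2(FPKM + 1) from the mean of the 10 libraries for each tested member (rows) and library (columns), with red above and blue below the mean and the black line between the groups. The C1q chains share the red column of MWA replicate 5, and Marco is darkest blue in MWA+2DG replicate 5.

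With group means subtracted, the 8 tested genes outside the list that were most like the mean of the members' z-scores over the 10 libraries were Mgat2, Inka1, Jdp2, Gm12263, Tmed10-ps, Mfsd12, Ctsb and Sdf2l1, with r from 0.93 down to 0.87. The averaged members did not all move together. The C1q chains had r of 0.93 to 0.95 with each other, but Marco had -0.83 with Adgre1 and Siglec1 had -0.65 with C1qa. These 8 genes therefore need not be like each member. Ctsb, the lysosomal protease cathepsin B, was the most abundant of them at a mean of 122 FPKM. Cd209b (SIGN-R1), a lectin of marginal zone and medullary macrophages picked after its values were seen, followed Marco at r = 0.96 with group means subtracted. It was at 36.4, 87.9, 34.7, 23.3 and 17.7 FPKM in the MWA group and at 70.3, 48.8, 13.4, 17.6 and 3.58 FPKM in the MWA+2DG group. Like Marco, it was higher in replicates 1 and 2 of both groups than in any of replicates 3 to 5.

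None of the members' ligands and regulators named here passed the rule. The CSF1 receptor ligands Csf1 and Il34 had log2 fold changes of 0.03 and -0.06, and Lta, the gene of lymphotoxin alpha, had -0.24 (exact permutation p = 0.0159), under the fold threshold. In the growth factor axis 1 of 17 tested genes was lower by the rule, Csf1r itself, and none was higher, with a median of -0.03. The MERTK bridging ligands Gas6 (27.4 ± 4.69 and 26.1 ± 9.31 FPKM) and Pros1 (4.55 ± 1.12 and 4.26 ± 1.13 FPKM; SD, n = 5 each) had -0.11 and -0.08. Of 19 tested genes for apoptotic cell clearance none passed the rule and the median was 0.0078, with Cd36 at 0.35 and Dock2 at 0.13. Of 20 tested complement genes, the C1q chains among them, none passed and the median was -0.06. C3 stood at 0.05, properdin (Cfp) at -0.22 and Cfd at 1.16 ± 0.84 (SE), with 55.0 FPKM in MWA+2DG replicate 5 where Adipoq was also highest. Spi1, which encodes the myeloid transcription factor PU.1, had -0.08.

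The scavenger and lectin receptors, which hold Marco and Siglec1, had mostly negative fold changes, by sizes that moved with the libraries. The log2 fold change was below 0 in 16 of 18 tested genes, beside 47.4% of all tested genes, with a median of -0.27. Marco and Cd209b of this list moved together, so its genes are not independent counts. By the rule 1 was lower and none was higher. That gene was Clec10a, a galactose lectin, at -0.38 ± 0.14 (SE; exact permutation p = 0.0397, adjusted p = 0.995 in limma). The median was -0.15 without MWA+2DG replicate 5, -0.06 within replicates 1 and 2 and -0.27 within replicates 3 to 5. Clec12a had -0.14. Of 24 tested lysosome genes none passed the rule and the median was 0.0036. Lipa, the lysosomal acid lipase, was at 6.99 ± 0.193 FPKM in the MWA group and 8.32 ± 0.485 FPKM in the MWA+2DG group (SD, n = 5 each), without overlap. Its log2 fold change of 0.22 ± 0.06 was under the fold threshold (exact permutation p = 0.00794, adjusted p = 0.995 in limma), and Npc1 had 0.13. None of 7 Fc receptor genes (median -0.06; Fcrla -0.11 and Fcgr3 -0.09) nor of 12 tested heme and iron genes (median -0.07; Slc11a1 0.22 and Tfrc -0.12) passed.

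Of 13 tested monocyte and general myeloid genes 1 was lower and the median was -0.14. That gene was Lyz2, lysozyme of macrophages, at 1439, 1830, 1477, 1460 and 2244 FPKM in the MWA group and 1236, 1502, 1159, 1274 and 917 FPKM in the MWA+2DG group. Its log2 fold change was -0.47 ± 0.16 (SE; exact permutation p = 0.0317, adjusted p = 0.995 in limma). It was -0.55 to -0.36 on leaving out any library, -0.25 within replicates 1 and 2 and -0.61 within replicates 3 to 5. Apoe had -0.18. Of 18 tested cytokines and chemokines of macrophages 1 was lower (Il18, -0.35, exact permutation p = 0.0476), the median was -0.04, and Ccl12 had -0.69 ± 0.41 (SE). Limma's P of Il18 was 0.052 rescaled to a sum of 1000000. Without MWA replicate 5 Il18 was at -0.22, and without MWA+2DG replicate 4 Ccl12 was at -0.44. Limma's P of Clec10a rose to at most 0.0573 on leaving out MWA replicate 2 or 5 or MWA+2DG replicate 1, 3 or 4. That of Il18 rose to at most 0.0765 on leaving out MWA replicate 2, 3 or 5 or MWA+2DG replicate 1, 2, 3 or 5.

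**Figure D5:**
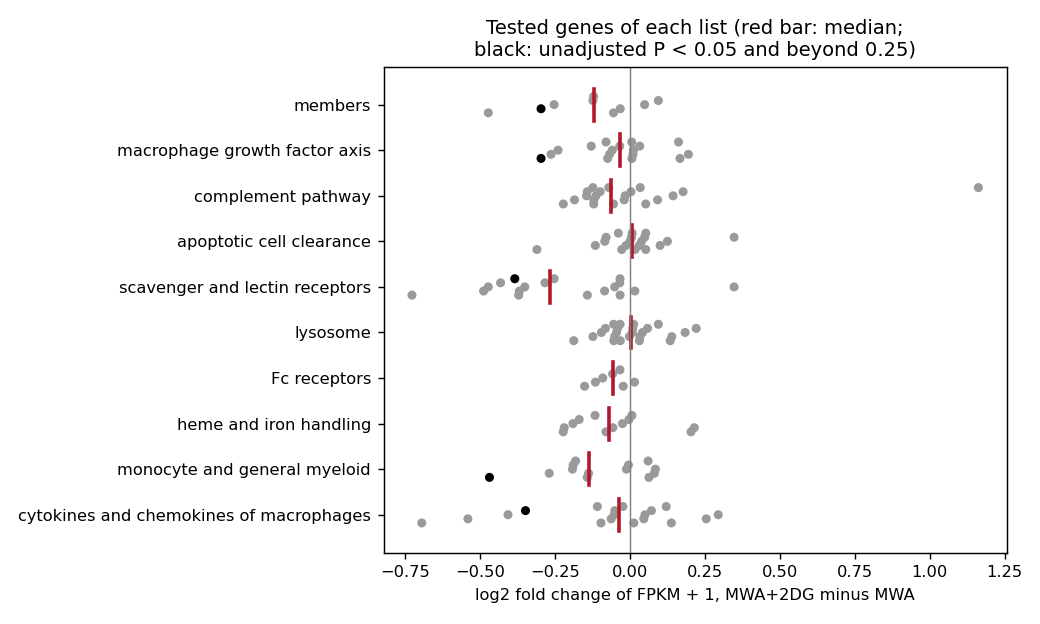
Log2 fold change of FPKM + 1 (MWA+2DG minus MWA) for each tested gene of the members and of 9 macrophage-related lists, 1 point per gene. Red bars are medians and black points pass an unadjusted P of 0.05 with a fold change beyond 0.25; the medians run from -0.27 for scavenger and lectin receptors to 0.0078 for apoptotic cell clearance.

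Markers of other cells moved with the libraries as follows, and their part in the macrophage values was not tested. FPKM ranges in this paragraph are sums over all genes of a list, tested or not, with the MWA group first. Neutrophil genes had 2 lower of 3 tested (S100a9 -1.61 and S100a8 -1.43, exact permutation p = 0.0317 and 0.0476), with a summed level of 10.8 to 89.4 FPKM in the MWA group, highest in replicate 1, and 1.38 to 15.5 FPKM in the MWA+2DG group. Their median was -2.79 within replicates 1 and 2 and -0.58 within replicates 3 to 5, and S100a8 was at -0.95 without MWA replicate 1. Plasma cell genes had 2 lower of 4 (Xbp1 -0.39 and Mzb1 -0.50, exact permutation p = 0.0714 and 0.0635), at 300 to 798 against 222 to 480 FPKM. Their median turned from 0.14 within replicates 1 and 2 to -0.74 within replicates 3 to 5, and limma's P of Xbp1 was 0.0557 rescaled to a sum of 1000000 and 0.0544 with quantile normalization. Mzb1 was at -0.32 without MWA replicate 5. T cell genes had 1 higher of 6 (Cd8a 0.28, exact permutation p = 0.0635), at 246 to 385 against 267 to 370 FPKM, while Cd4 had 0.23. On leaving out a library, limma's P of Xbp1 rose to at most 0.0734 (without MWA replicate 3, 4 or 5 or MWA+2DG replicate 3 or 5) and that of Mzb1 to at most 0.0691 (the same libraries and MWA+2DG replicate 2). That of Cd8a rose to at most 0.0688 (without MWA replicate 2, 3 or 5 or MWA+2DG replicate 1 or 3) and that of S100a8 to 0.0597 (without MWA+2DG replicate 2). None passed among 6 dendritic cell genes (Ccr7 0.18 and Xcr1 0.14; 75.0 to 113 against 95.3 to 113 FPKM), 5 B cell genes (Ms4a1 -0.18 and Cd79b -0.16; 1372 to 1554 against 1212 to 1433 FPKM) and 6 hepatocyte genes (Serpina1a -0.12 and Fgb -0.33; 22.0 to 180 against 22.7 to 134 FPKM). None passed either among the 2 tested adipocyte genes (Adipoq 1.01 and Fabp4 0.76; 2.02 to 6.92 against 2.37 to 30.6 FPKM), the 2 epithelial genes (Krt18 0.37 and Epcam -0.05; 1.79 to 4.88 against 1.63 to 7.66 FPKM) and the 2 red blood cell genes (Hbb-bs -0.59 and Hba-a1 -0.27; 15.2 to 43.9 against 11.2 to 54.1 FPKM). These small lists moved with single libraries, with Adipoq at 0.55, Fabp4 at 0.43 and Krt18 at 0.15 without MWA+2DG replicate 5 and Hba-a1 at -0.06 and Hbb-bs at -0.36 without MWA+2DG replicate 2. The 3 skeletal muscle genes summed to 0.336 FPKM or less in every library.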

How the data were processed

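The authors deposited FPKM values per gene, 1 table per mouse. Per the study's methods, reads were checked with fastp, mapped with HISAT2 and assembled and quantified with StringTie and ballgown, and the processing notes name cutadapt 1.9, HISAT2 2.0.4, UMI-tools, StringTie 1.3.4d and mm9. The deposited FPKM hold no counts (smallest value above 0: 1e-06), so depth and counting error are unknown. The sources used here do not say whether molecular identifiers entered these values. Of 33643 identifiers 33541 matched a symbol, and values of 57 shared symbols were summed. Genes averaging 1 FPKM or more were tested on log2(FPKM + 1) with limma 3.58.1 (R 4.3.3, no covariate), so fold changes of low genes are understated. For this comparison, log2 values of 13334 genes were also simulated as independent and normal, so no genes moved together across libraries as in the data. At an adjusted p of 0.05, 176 of 200 genes shifted by 1 on the log2 scale passed, with 12 unchanged genes. For a shift of 0.5, 111 of 200 passed, with 5 unchanged genes. Whether such shifts would pass in the members, or within replicates 1 and 2 or 3 to 5, was not tested. The SE of the tested members' log2 fold changes ran from 0.13 (Csf1r) to 0.63 (Marco). Exact permutation tests were run on FPKM in scipy 1.17.1, and correlations were tested with 100000 permutations and adjusted over the 36 pairs.

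The study's rule takes P below 0.05 and a log fold change beyond 0.25. The members and all 20 other gene lists were chosen with earlier results of these data known, and lists share genes. Named were the members, their ligands and regulators, for each list its 2 genes with the smallest P and those passing the rule. A result that this naming would include is not reported here. A nonmember was taken as alike by its correlation with the members' mean z-score. P-values measure the spread between these libraries. Alternatives were another pseudocount (0.1), no filter, a filter of 5 FPKM, other scalings, limma-trend, the replicate number as a block, the replicate set as a term and leaving out each library; fits within each set and rescaling to the mean sum were added after seeing the data.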

Additional observations from a re-analysis of the deposited data

Results flagged for a closer look

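Among 45 genes (the members and 35 named genes of the lists), 89 groups of 5 libraries with any spread were searched for a library far from the other 4, and 12 were found. The criterion takes about 1 in 20 groups when values are independent and normal. FPKM of these genes, which share libraries and partly move together, need not meet that, so no excess over chance is read from the count. Of the 12, 5 were of members. The C1q chains accounted for 4 of them, with C1qa at 113 FPKM in MWA replicate 5 (next 63.5) and 86.2 FPKM in MWA+2DG replicate 5 (next 59.1), C1qb at 51.2 FPKM in MWA replicate 5 (next 33.8) and C1qc at 34.7 FPKM in MWA replicate 5 (next 23.2). The other was Vsig4 at 0.0755 FPKM in MWA+2DG replicate 4, with the other 4 libraries at 0, where any value above 0 meets the criterion. Without that group, 11 of 88 were found.

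Cd79b was at 567 FPKM in MWA replicate 5. Clec12a was at 2.16 FPKM in MWA+2DG replicate 4, below the rest. Dock2 was at 32.7 FPKM in MWA+2DG replicate 1. In MWA replicate 1, Hba-a1 was low at 4.05 FPKM, and S100a8 and S100a9 were high at 21.9 and 46.9 FPKM. S100a9 was at 10.7 FPKM in MWA+2DG replicate 5.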

How the results depend on the processing

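No member reached an adjusted p of 0.05 under any alternative. The 1 member by the rule of unadjusted P below 0.05 and log2 fold change beyond 0.25, Csf1r, kept a negative log2 fold change under all 23 alternatives (-0.40 to -0.14) and lost the call in 16, the exact permutation test among them. The members' count was 0 with a pseudocount of 0.1, without a filter, rescaled to a sum of 1000000 or to the mean sum, with quantile normalization, with the replicate number as a block, with the replicate set as a term, and within replicates 1 and 2 or 3 to 5, and 0 to 1 on leaving out a library. The members' median ran from -0.19 (without MWA+2DG replicate 5) to 0.02 (without MWA replicate 5). Over all genes, the higher count was 69 with a filter of 5 FPKM, 440 rescaled to a sum of 1000000 (more genes tested), 273 rescaled to the mean sum, 371 within replicates 1 and 2 and 80 to 222 on leaving out a library. The lower count was 161 with a filter of 5 FPKM (fewer genes tested), 147 rescaled to the mean sum, 386 within replicates 3 to 5 and 177 to 315 on leaving out a library. Genes at an adjusted p below 0.05 numbered 0 to 1 on leaving out a library, 1 without MWA replicate 2. Where not stated, the cause was not tested.

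Directions turned as follows. C1qc was at 0.0073 rescaled to a sum of 1000000 and 0.0074 rescaled to the mean sum, where Adgre1 was at 0.0071. Within replicates 1 and 2, Siglec1 was at 0.21, Cd68 at -0.094, Ccr7 at -0.017, Epcam at 0.11, Serpina1a at 0.048, Slc11a1 at -0.10 and Xbp1 at 0.076. Within replicates 3 to 5, Adgre1 was at 0.075. On leaving out a library, values ran from -0.22 to 0.084 for Adgre1, -0.24 to 0.065 for C1qa, -0.23 to 0.0044 for C1qb, -0.19 to 0.084 for C1qc, -0.011 to 0.18 for Cd68, -0.85 to 0.028 for Marco, -0.044 to 0.12 for Mertk and -0.14 to 0.018 for Epcam.

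Same-numbered libraries correlated at 0.331, 0.501, 0.110, 0.0334 and 0.151 in their deviations from the group means, so the numbers were not taken to pair mice. A fit with the replicate number as a block gave 164 higher and 285 lower genes, and 1 of 5 numbers correlated best with itself. FPKM without counts set no limit of detection, so Vsig4 and Clec4f are described only as listed at or near 0.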
